A study of Mus musculus with 9 samples.

Results

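The mouse genes described here are 10 neuropeptide genes, Penk, Pdyn, Tac1, Sst, Npy, Cck, Cartpt, Nts, Hcrt and Pmch, out of 55450 counted genes. They were chosen by name, with earlier results of these data known, each as the precursor of a signalling peptide made by neurons. Their read counts were compared across the 3 groups of the study. All 10 were found under 1 gene identifier each, and all 10 passed the filter on low counts.

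RNA of manually dissected nigral tissue was sequenced in 9 bulk libraries, 3 per group. Lentivirus with a Cre-dependent cassette under the Ef1a promoter was injected into the substantia nigra, and tissue was collected 5 weeks later. The libraries labelled CTR came from CX3CR1-CreERT2 mice given the control vector, described as GFP in the labels and as destabilized GFP in the study's text. The libraries labelled CX3 came from the same line given the Synuclein-expressing vector, and those labelled DAT from DAT-Cre mice given that vector. The CX3CR1-CreERT2 line recombines in microglia and other myeloid cells after tamoxifen, and the DAT-Cre line in neurons that use the dopamine transporter. Mice were injected at 8 weeks of age, although the purchased animals are elsewhere described as 9 weeks old. No library came from DAT-Cre mice with the control vector, so in any comparison with DAT the mouse line, the cells that carry the vector and tamoxifen, which is described only for the CX3CR1-CreERT2 mice, cannot be told apart. Between DAT and CTR the protein made from the vector differs as well. The labels do not say whether the libraries A, B and C of a group came from separate animals. The p-values below therefore measure the spread between these libraries, which may be technical. CTR, CX3 and DAT stand below for the libraries that carry these labels.

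Neuropeptides are cut from larger precursor proteins by convertases, packed into dense core vesicles and released to act on G protein-coupled receptors. Each precursor gene is typically transcribed in particular groups of neurons, so its RNA marks where those cell bodies lie, while the peptide may be released far away in axon terminals. Enkephalin, dynorphin and substance P are classical peptides of striatal projection neurons. Of these neurons, those that make dynorphin and substance P send axons to the substantia nigra. Hypocretin and melanin-concentrating hormone are made in separate neurons of the lateral hypothalamus, in front of the midbrain. Cholecystokinin and neurotensin are also made by some dopaminergic neurons of the midbrain.

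Promoter sequences are shown for the genes on which the results turn. Hcrt and Pmch had the largest differences from CTR, and the 100 bases before their RefSeq transcript starts are given 5′ to 3′ on the gene's strand (assembly GRCm38.p6), with the letters TATAAA and, in Pmch, the letters TGAGTCA in capitals. The Hcrt stretch lies at chr11:100762932-100763031 on the minus strand, and the Pmch stretch at chr10:88090972-88091071 on the plus strand.
Hcrt: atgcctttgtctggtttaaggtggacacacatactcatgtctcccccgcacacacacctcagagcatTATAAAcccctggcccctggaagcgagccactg
Pmch: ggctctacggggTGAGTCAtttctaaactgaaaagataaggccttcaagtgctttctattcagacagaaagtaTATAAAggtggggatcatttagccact
Among the 9 members with a promoter in the RefSeq table, Sst and Cartpt held the palindrome TGACGTCA, the cAMP response element, within 250 bases before the start. It is shown in capitals in windows of 30 bases. Both genes were higher in DAT than in CTR, but so were Pdyn, Npy, Nts, Hcrt and Pmch, which held no such match. The Sst window lies at chr16:23890874-23890903 and the Cartpt window at chr13:99900777-99900806, both on the minus strand.
Sst: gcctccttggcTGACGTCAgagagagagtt
Cartpt: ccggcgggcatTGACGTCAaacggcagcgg
Over the 250 bases before the start, TGACGTCA was present in 1.55% of 32851 promoters of the table, TGANTCA, the form of the AP-1 motif searched, in 6.75%, and TATAAA in 12.4%, each searched on both strands. These matches describe letters only, and binding was not measured.

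Each library held 21592817 to 39475428 reads counted on genes. Counts were scaled by TMM, a method that corrects library totals for a few very abundant genes, to CPM, the count per 1000000 reads of normalized library size, and the floor of 3 counts equals 0.0779 to 0.151 CPM, for counting error only. The squared difference between libraries of a group was 1.45 to 1.80 times that of random sampling in CTR, 2.54 to 6.59 times in CX3 and 2.26 to 16.5 times in DAT, against 36.5 to 171.5 times between groups. DAT B, the shallowest library, had the highest CPM of its group for all 10 members. The transgenes are not among the counted mouse genes, so they could not serve to check the labels. Markers of microglia and lymphocytes were highest in the libraries labelled CTR. Their summed level ranged from 568 to 571 CPM in CTR, 386 to 394 in CX3 and 355 to 370 in DAT. Of the 10 markers, 7 were called lower in CX3 than in CTR, against 16.5% of all genes tested. None of the 10 was at 0 in a group. Pituitary hormone genes also stood apart in CTR, with growth hormone (Gh) at 34.7 CPM against 0.217 in CX3 and 0.103 in DAT. The part of these differences in the results below was not tested.

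Levels of neuropeptide RNA differed between all 3 groups. Against CTR, Hcrt and Pmch differed most among the members, while between CX3 and DAT the Pmch difference was smaller than those of Npy, Cartpt, Pdyn and Sst. A gene was called where edgeR's quasi-likelihood test gave a Benjamini-Hochberg adjusted p below 0.05 over 20892 genes, and fold changes are on the log2 scale with their standard errors (SE). Between CX3 and CTR, 3 of 10 members were called higher, where 14% of all genes tested were, and 2 were called lower, where 16.5% were. Called differences of at least 2-fold were found in 2 members, against 3.59% of all genes, and the libraries of the groups did not overlap in 7, against 49.3%. Between DAT and CTR, 8 members were called higher and 1 lower, against 32% and 27.9% of all genes. In that comparison 4 members differed at least 2-fold, against 15.9%, and 9 did not overlap, against 64.1%. Between CX3 and DAT, 3 members were higher and 6 lower in CX3, against 27.6% and 31.3%, with 3 called at 2-fold or more, against 15.4%, and 9 without overlap, against 61%. The median log2 fold change of the members was 0.01 for CX3 against CTR, 0.77 for DAT against CTR and -0.65 for CX3 against DAT, while the medians of all genes were -0.00, -0.00 and 0.01. Hcrt reached the filter's minimum in only 1 CTR library and so passed through the groups where it was high. The members were also chosen with earlier results of these data known. For both reasons the counts are descriptions. The 3 comparisons share libraries and are not independent of each other.

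**Figure D1:**
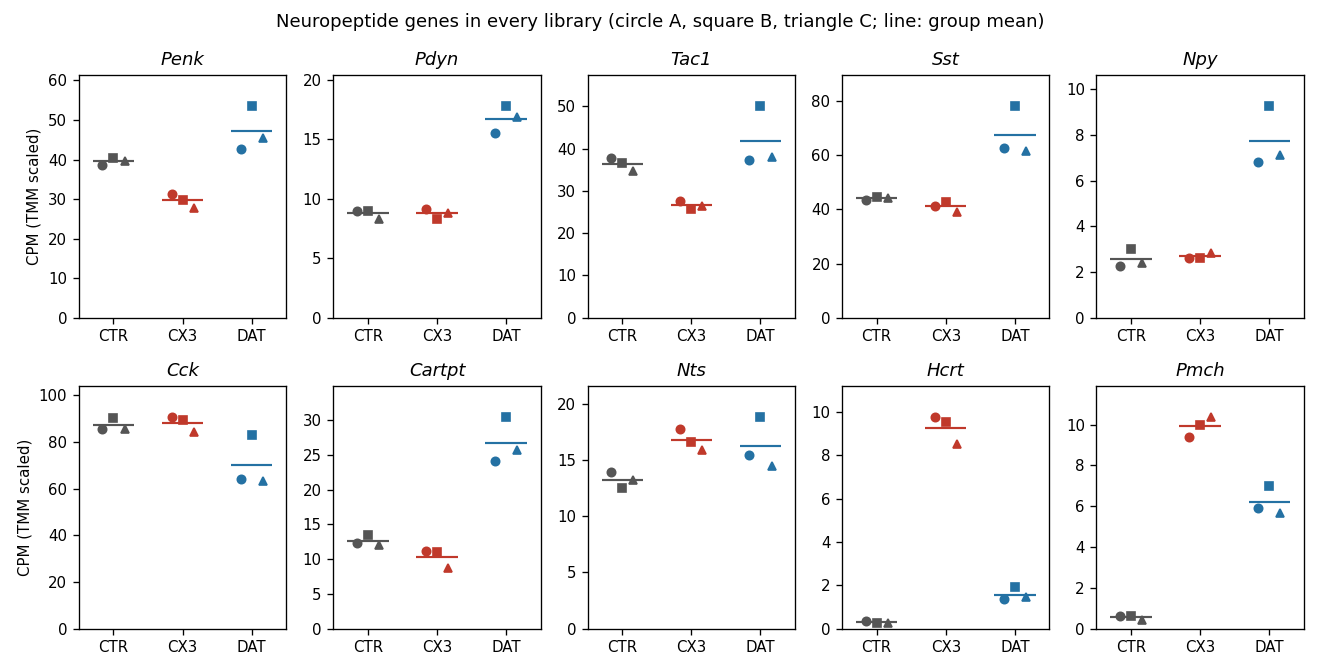
CPM (TMM scaled, linear axis from 0) of each neuropeptide gene in every library of CTR, CX3 and DAT, with the group mean as a line. Hcrt and Pmch lay near 0 in CTR and highest in CX3, while Pdyn, Sst, Npy and Cartpt stood highest in DAT, where library B was the highest for all 10 genes.

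Hcrt (ENSMUSG00000045471.4, chromosome 11 from 100761069 to 100762931) encodes the precursor of the hypocretins, also called orexins, which maintain wakefulness. Its level was 0.361, 0.275 and 0.233 CPM in CTR A, B and C, 9.76, 9.56 and 8.54 CPM in CX3 and 1.34, 1.91 and 1.45 CPM in DAT. These are 11, 10 and 7 reads in CTR, 376, 331 and 328 in CX3 and 49, 38 and 33 in DAT. The 3 groups did not overlap, with CTR lowest and CX3 highest. The gene was 31.7-fold higher in CX3 than in CTR (log2 fold change 4.99, SE 0.18, adjusted p = 8.754e-11). In DAT it was 5.23-fold higher than in CTR (log2 fold change 2.39, SE 0.25, adjusted p = 1.383e-06). It was 6.06-fold higher in CX3 than in DAT (log2 fold change 2.60, SE 0.14, adjusted p = 1.644e-09). Since Hcrt passed the filter through CX3 and DAT, its p-values against CTR are given as descriptions. In bulk tissue, more cells of a type and more RNA per cell cannot be told apart, and this holds for each difference below.

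Pmch (ENSMUSG00000035383.7, chromosome 10 from 88091072 to 88092375) encodes the precursor of melanin-concentrating hormone, which promotes feeding and sleep. It had 0.624, 0.604 and 0.433 CPM in CTR, 9.40, 9.99 and 10.4 CPM in CX3 and 5.92, 6.99 and 5.66 CPM in DAT. Again CTR was lowest and CX3 highest without overlap, but DAT lay much nearer to CX3 than it did for Hcrt. Pmch was 17.7-fold higher in CX3 than in CTR (log2 fold change 4.14, SE 0.15, adjusted p = 7.781e-11) and 10.97-fold higher in DAT than in CTR (3.46, SE 0.16, adjusted p = 3.872e-10). Between CX3 and DAT the difference was 1.61-fold (0.69, SE 0.10, adjusted p = 4.812e-05). Its counts understate its level, because 58.1% of its exon bases are shared with Parpbp on the opposite strand and reads there were left uncounted when both strands were counted as one. The counts of the 2 strands added up to 6.13 to 9.51 times the counts used. Since the libraries do not tell the strands apart, these strand counts also hold any Parpbp reads from the shared bases. The part of Parpbp reads was not tested. With the reverse or the forward strand alone, the log2 fold change was 4.05 or 4.08 for CX3 against CTR, 3.74 or 3.61 for DAT against CTR, and 0.32 or 0.47 for CX3 against DAT, all called.

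The ratio of reads counted for Hcrt and Pmch also differed between groups. From the summed strands, which hold the reads of the shared exon, there were 0.0924, 0.0599 and 0.0648 Hcrt reads per Pmch read in CTR, 0.139, 0.135 and 0.135 in CX3 and 0.0274, 0.0287 and 0.0284 in DAT. The ratio was thus highest in CX3 and lowest in DAT, without overlap between any groups. The CTR ratios rest on 11, 10 and 7 Hcrt reads, and the summed strands also hold any Parpbp reads from the shared exon. In the counts used, which leave out the shared bases, the ratio was 0.455 to 0.579 in CTR, 0.824 to 1.04 in CX3 and 0.227 to 0.273 in DAT. As counted, with Pmch understated, Hcrt and Pmch together made up 0.277% to 0.404% of the summed CPM of the 10 members in CTR, 7.64% to 8.12% in CX3 and 2.54% to 2.63% in DAT.

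Hypothalamus markers other than Hcrt and Pmch were mostly highest in DAT. Of 12 listed hypothalamus markers, 1 was called higher and 8 lower in CX3 than in CTR, against 14% and 16.5% of all genes. In DAT, 11 were called higher than in CTR, against 32%, and 11 were lower in CX3 than in DAT, against 31.3%. Their summed level was 86.6 to 89.8 CPM in CTR, 66.9 to 72.2 in CX3 and 201 to 213 in DAT, and none was at 0 in a group. Fezf1, Nr5a1 and Six6 reached the filter's minimum of 0.304 CPM in DAT only, so they passed through the group where they are high, and the counts that include them are descriptions. Hdc, the histidine decarboxylase of histaminergic neurons, had a mean of 6.39 CPM in CTR, 3.47 in CX3 and 23.4 in DAT. Nkx2-1, a transcription factor of the ventral hypothalamus, had 4.34, 2.16 and 13.5 CPM. Nr5a1, a marker of the ventromedial nucleus, had 0.178, 0.0183 and 1.05 CPM, with the CX3 mean below the floor. Fezf1 had 0.0476, 0.0173 and 2.25 CPM, with the means of CTR and CX3 both below it. Lhx9, a factor of developing hypocretin neurons that is also found in the midbrain and thalamus, had 19.3, 16.5 and 17.7 CPM. Transthyretin (Ttr), abundant in the choroid plexus, had 20.03 CPM in CTR, 1457 in CX3 and 853 in DAT, and Folr1 had 1.44, 9.85 and 5.04 CPM. The choroid plexus genes Kl (7.41, 24.2 and 38.0 CPM) and Clic6 (5.275, 15.0 and 22.1 CPM) were instead highest in DAT. Of the 7 choroid plexus and pituitary genes, these 4 were called higher in CX3 than in CTR, against 14% of all genes. The other 3, Gh, prolactin (Prl) and Pomc, were called lower, against 16.5%. The summed level of these 7 genes was 90.1 to 95.3 CPM in CTR, 1462 to 1572 in CX3 and 876 to 1051 in DAT. In CX3 and DAT this sum was mostly Ttr. Prl was at 0 in DAT and reached the filter's minimum in CTR only, while Gh reached it in 1 CX3 library and no DAT library. Both passed through CTR, where they are high, so the counts that include them are descriptions. The part of dissected neighbouring tissue in the levels of Hcrt and Pmch was not tested.

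**Figure D2:**
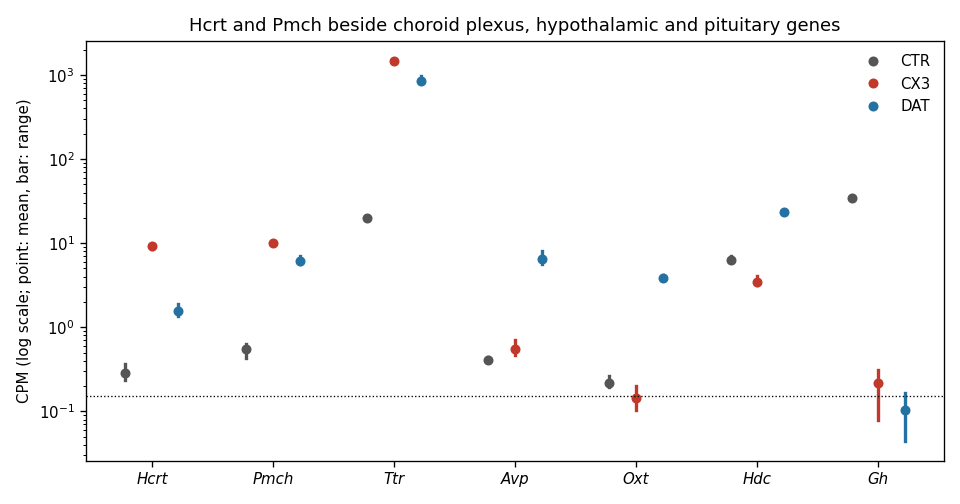
Mean CPM on a log axis (point) with the range over the 3 libraries (bar, hidden where narrower than the point) for Hcrt and Pmch, the choroid plexus gene Ttr, the hypothalamic genes Avp, Oxt and Hdc and the pituitary gene Gh. The dotted line is the highest floor of 3 counts, 0.151 CPM. Hcrt, Pmch and Ttr had the order CTR, DAT, CX3 from low to high, while Avp, Oxt and Hdc were highest in DAT. Of the choroid plexus genes not drawn, Folr1 had the order of Ttr, and Kl and Clic6 were highest in DAT.

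The opioid precursors separated, with Penk differing between all groups and Pdyn rising in DAT. Penk (ENSMUSG00000045573.9, chromosome 4 from 4133531 to 4138819) encodes proenkephalin, the source of ligands for the delta and mu opioid receptors. Its level was 38.6, 40.4 and 39.6 CPM in CTR, 31.4, 29.9 and 27.7 CPM in CX3 and 42.6, 53.4 and 45.4 CPM in DAT. All 3 CX3 libraries lay below, and all 3 DAT libraries above, those of CTR. Penk was 1.33-fold lower in CX3 than in CTR (log2 fold change -0.41, SE 0.07, adjusted p = 0.0008462) and 1.58-fold lower than in DAT (-0.66, SE 0.08, adjusted p = 3.565e-06). The excess in DAT over CTR was 1.19-fold (0.25, SE 0.07, adjusted p = 0.01102), and it was not called without CTR A (0.21, adjusted p = 0.06234) or when libraries were scaled by their totals alone (0.10, adjusted p = 0.2667). It shares 14.3% of its exon bases with A830012C17Rik on the opposite strand, and its 2 strands added up to 1.19 to 1.29 times the counts used.

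Pdyn (ENSMUSG00000027400.11, chromosome 2 from 129686565 to 129699844) encodes prodynorphin, the source of kappa receptor ligands. It had 8.97, 8.98 and 8.33 CPM in CTR, 9.14, 8.32 and 8.83 CPM in CX3 and 15.5, 17.8 and 16.9 CPM in DAT. The CTR and CX3 libraries overlapped and those of DAT lay above all others. The log2 fold change of CX3 against CTR was 0.00 with a 95% interval from -0.17 to 0.17 (adjusted p = 0.9996). Pdyn was 1.89-fold higher in DAT than in CTR (0.92, SE 0.08, adjusted p = 1.502e-07), and by the same factor higher than in CX3 (-0.92 for CX3 against DAT, SE 0.08, adjusted p = 1.289e-07).

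Tac1 was lower in CX3 than in the other groups. Tac1 (ENSMUSG00000061762.12, chromosome 6 from 7554879 to 7565834) encodes the precursor of substance P and neurokinin A. It had 37.8, 36.5 and 34.7 CPM in CTR, 27.7, 25.7 and 26.4 CPM in CX3 and 37.3, 49.9 and 38.0 CPM in DAT. CX3 lay below both other groups without overlap, while DAT A fell within the range of CTR. The gene was 1.37-fold lower in CX3 than in CTR (log2 fold change -0.45, SE 0.09, adjusted p = 0.00183) and 1.56-fold lower than in DAT (-0.64, SE 0.09, adjusted p = 3.059e-05). DAT against CTR gave 0.19 (95% interval -0.00 to 0.38, adjusted p = 0.08241), which was called without DAT A (0.25, adjusted p = 0.03315) or DAT C (0.23, adjusted p = 0.04651) and was 0.05 (adjusted p = 0.4728) without DAT B.

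The neurotensin gene was the only member not called between CX3 and DAT. Nts (ENSMUSG00000019890.4, chromosome 10 from 102481756 to 102490486), the precursor of neurotensin and neuromedin N, had 13.9, 12.6 and 13.2 CPM in CTR, 17.8, 16.6 and 15.9 CPM in CX3 and 15.5, 18.8 and 14.5 CPM in DAT. Both groups with the Synuclein-expressing vector lay above CTR without overlap, and they overlapped with each other. Nts was 1.27-fold higher in CX3 than in CTR (log2 fold change 0.34, SE 0.09, adjusted p = 0.008833) and 1.22-fold higher in DAT than in CTR (0.29, SE 0.09, adjusted p = 0.01337). Without CTR B neither was called, with 0.30 (adjusted p = 0.05406) and 0.23 (adjusted p = 0.08542). The excess in DAT was also not called with total-count scaling (0.14, adjusted p = 0.1903) or in the counts of either strand (0.22 and 0.19, adjusted p = 0.0924 and 0.1591). The difference between CX3 and DAT was 0.05 with a 95% interval from -0.14 to 0.24 (adjusted p = 0.6335).

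The somatostatin and neuropeptide Y genes, which mark partly shared classes of inhibitory neurons, were highest in DAT. Sst (ENSMUSG00000004366.4, chromosome 16 from 23889573 to 23890958) encodes somatostatin, an inhibitory peptide. It had 43.5, 44.5 and 44.0 CPM in CTR, 41.3, 42.7 and 39.0 CPM in CX3 and 62.8, 77.9 and 61.4 CPM in DAT. DAT lay far above both other groups, and CX3 just below CTR without overlap, a difference that was not called (log2 fold change -0.10, 95% interval -0.27 to 0.06, adjusted p = 0.3509). Sst was 1.53-fold higher in DAT than in CTR (0.61, SE 0.08, adjusted p = 9.5e-06) and 1.64-fold higher than in CX3 (-0.71 for CX3 against DAT, SE 0.08, adjusted p = 1.983e-06).

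Npy (ENSMUSG00000029819.6, chromosome 6 from 49822710 to 49829507) encodes neuropeptide Y, which stimulates feeding and inhibits transmitter release. It had 2.27, 2.99 and 2.40 CPM in CTR, 2.60, 2.63 and 2.84 CPM in CX3 and 6.83, 9.25 and 7.11 CPM in DAT. CTR and CX3 overlapped and every DAT library was above them. Npy was 2.97-fold higher in DAT than in CTR (log2 fold change 1.57, SE 0.15, adjusted p = 4.314e-07) and 2.84-fold higher than in CX3 (-1.51 for CX3 against DAT, SE 0.14, adjusted p = 5.102e-07). CX3 against CTR gave 0.06 with a 95% interval from -0.27 to 0.40 (adjusted p = 0.794). The count ratio of Npy to Sst was 0.0521 to 0.0672 in CTR, 0.0615 to 0.0727 in CX3 and 0.109 to 0.119 in DAT, highest in DAT without overlap.

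Cck was the only member called lower in DAT than in CTR. Cck (ENSMUSG00000032532.7, chromosome 9 from 121489824 to 121495694) encodes cholecystokinin, which acts in the brain on the receptor Cckbr. It had 85.7, 90.4 and 85.5 CPM in CTR, 90.6, 89.6 and 84.5 CPM in CX3 and 64.0, 82.9 and 63.4 CPM in DAT. CTR and CX3 overlapped, and the DAT libraries lay below both, with DAT B close to them. Cck was 1.25-fold lower in DAT than in CTR (log2 fold change -0.32, SE 0.08, adjusted p = 0.003991) and 1.26-fold higher in CX3 than in DAT (0.34, SE 0.08, adjusted p = 0.002747). CX3 against CTR gave 0.02 with a 95% interval from -0.16 to 0.19 (adjusted p = 0.895). Without DAT B the log2 fold change of DAT against CTR was -0.46. Among 12 dopaminergic markers, 8 were called higher in CX3 than in CTR, against 14% of all genes tested. In DAT, 4 were called higher and 5 lower than in CTR, against 32% and 27.9%. Slc6a3, the dopamine transporter, had a mean of 130.0 CPM in CTR, 196 in CX3 and 91.1 in DAT, and the summed level of the markers was 979 to 989 CPM in CTR, 1199 to 1217 in CX3 and 826 to 843 in DAT. The part of dopaminergic RNA in the level of Cck was not tested.

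Cartpt was highest in DAT and lowest in CX3. Cartpt (ENSMUSG00000021647.7, chromosome 13 from 99898489 to 99901091) encodes the CART peptides, made among other places in the hypothalamus and the Edinger-Westphal nucleus of the midbrain. It had 12.3, 13.5 and 12.002 CPM in CTR, 11.1, 11.1 and 8.67 CPM in CX3 and 24.2, 30.4 and 25.8 CPM in DAT. No groups overlapped. Cartpt was 2.11-fold higher in DAT than in CTR (log2 fold change 1.08, SE 0.10, adjusted p = 5.574e-07) and 2.59-fold higher than in CX3 (-1.37 for CX3 against DAT, SE 0.10, adjusted p = 4.988e-08). CX3 against CTR gave -0.30 (95% interval -0.53 to -0.07, adjusted p = 0.0511), just outside the threshold, and it was called without CX3 A (-0.36, adjusted p = 0.04174), DAT A (-0.30, adjusted p = 0.03918) or DAT B (-0.29, adjusted p = 0.007864). The 6 genes listed for the Edinger-Westphal and oculomotor nuclei summed to 8.07 to 9.78 CPM in CTR, 8.39 to 9.51 in CX3 and 11.8 to 12.8 in DAT, with none at 0 in a group.

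**Figure D3:**
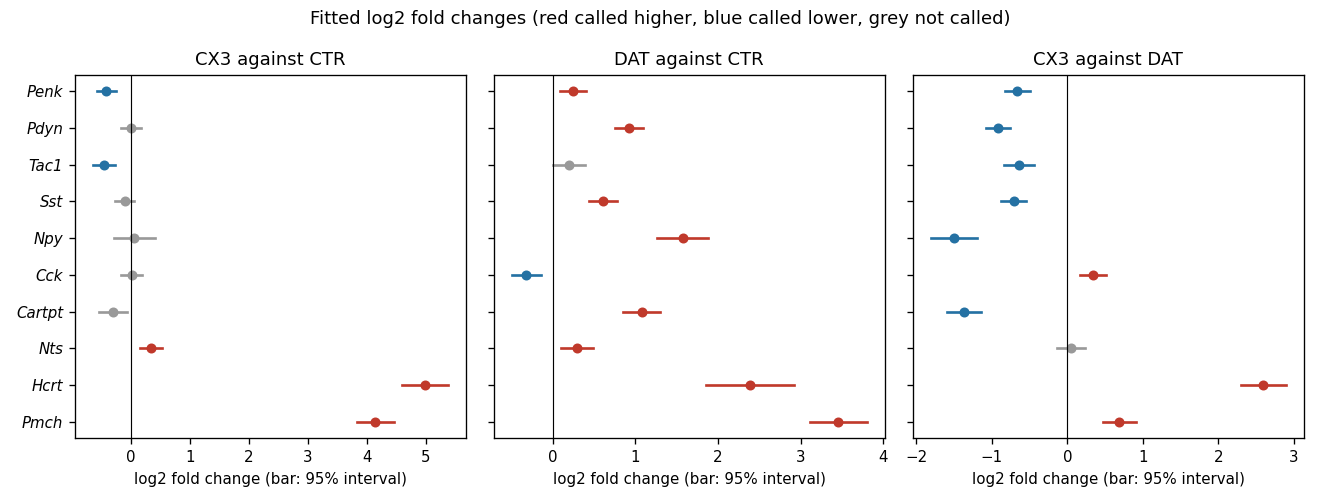
Fitted log2 fold changes (points) with 95% intervals (bars) of the neuropeptide genes in the 3 comparisons, each panel with its own x axis. Hcrt and Pmch lay farthest from 0 against CTR, at 4.99 and 4.14 for CX3 and 2.39 and 3.46 for DAT, and only Tac1 was not called between DAT and CTR.

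Compared per kilobase of exon and leaving out Pmch, Cck and Sst had the highest levels in every group. In CTR, Cck stood at 66.8 ± 2.11 CPM per kb (SD, n = 3) and Sst at 61.0 ± 0.725, followed by Penk at 24.2 ± 0.551. Tac1, Nts and Cartpt followed at 10.7, 10.6 and 9.87 CPM per kb with overlapping neighbours, and Hcrt was last at 0.387 ± 0.0871. In CX3, Hcrt stood at 12.4 ± 0.874 CPM per kb, near Nts at 13.4 ± 0.791, above Cartpt at 8.06 ± 1.10 and Tac1 at 7.82 ± 0.292. In DAT the order of the leading pair was inverted, with Sst at 93.4 ± 12.7 and Cck at 53.7 ± 8.50 CPM per kb. Pmch was listed at 0.740 CPM per kb in CTR, 13.2 in CX3 and 8.27 in DAT, values that are too low by the uncounted reads, so its place in the order is not given.

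Among the other peptide precursors tested, Avp and Oxt had the largest fold changes between DAT and CTR. Of 31 further precursor genes, 23 passed the filter, and 2 were called higher and 4 lower in CX3 than in CTR, 11 higher and 3 lower in DAT than in CTR, and 4 higher and 12 lower in CX3 than in DAT. These counts stand against 14% and 16.5%, 32% and 27.9%, and 27.6% and 31.3% of all genes tested, and their difference from these shares was not tested. The median log2 fold changes of the precursors were -0.08, 0.20 and -0.48. Oxt, the oxytocin precursor, had a mean of 0.219 CPM in CTR, 0.145 in CX3 and 3.87 in DAT, and Avp, the vasopressin precursor, 0.411, 0.553 and 6.55 CPM. Avp was called higher in DAT than in CTR (log2 fold change 3.96, adjusted p = 1.744e-09) and was not called between CX3 and CTR. Oxt and Npvf reached the filter's minimum in DAT only, Gnrh1 and Npff in no DAT library, and Npff in only 2 CTR libraries. These genes and Ghrh passed through the groups where they are high, so their levels, their fold changes and the counts that include them are descriptions. Ghrh, the growth hormone-releasing hormone gene, had 0.433, 0.490 and 2.23 CPM and reached that minimum in 2 CTR libraries. Pomc, the precursor of ACTH and beta-endorphin made in the pituitary and the arcuate nucleus, had 17.9 CPM in CTR, 2.74 in CX3 and 17.2 in DAT. Trh, the thyrotropin-releasing hormone gene, was higher than in CTR in CX3 (0.88, adjusted p = 0.001088) and in DAT (1.24, adjusted p = 1.802e-05). It was not called between CX3 and DAT (-0.36, adjusted p = 0.05564). Vip, the vasoactive intestinal peptide gene, was higher in CX3 than in CTR (0.57, adjusted p = 0.0311) and was not called between DAT and CTR (0.06, adjusted p = 0.8269). Kiss1 had no count in any library.

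Receptors of the 10 peptides were mostly higher in DAT. Of 23 receptor genes 22 passed the filter. In CX3, 2 were called higher and 9 lower than in CTR, against 14% and 16.5% of all genes tested. In DAT, 16 were called higher and 3 lower than in CTR, against 32% and 27.9%. Between CX3 and DAT, 1 was higher and 16 lower in CX3, against 27.6% and 31.3%. The receptors for hypocretin and melanin-concentrating hormone had their highest means in DAT. Hcrtr2 had a mean of 8.38 CPM in CTR, 7.17 in CX3 and 12.5 in DAT, Hcrtr1 had 5.55, 6.24 and 6.995 CPM, and Mchr1 had 6.20, 5.87 and 10.2 CPM. Oprd1, the delta opioid receptor, was higher in DAT than in CTR (log2 fold change 1.57, adjusted p = 3.758e-06), while Oprk1, the kappa receptor, was higher in CX3 (0.18, adjusted p = 0.04677) and lower in DAT (-0.17, adjusted p = 0.04195). Ntsr1, a neurotensin receptor, was higher than in CTR in CX3 (0.50, adjusted p = 0.0001663) and in DAT (0.61, adjusted p = 7.952e-06). The other neurotensin receptors listed did not share this pattern. Ntsr2 was not called against CTR in CX3 (-0.06, adjusted p = 0.2912) or DAT (0.05, adjusted p = 0.3316). Sort1 was lower than in CTR in CX3 (-0.25, adjusted p = 0.002169) and higher in DAT (0.54, adjusted p = 4.86e-07). Tacr1, the substance P receptor, was lower in CX3 than in CTR (-0.47, adjusted p = 0.005258) and higher in DAT (0.73, adjusted p = 2.942e-05). Tacr2 had a mean of 0.391 CPM in CTR and 0.0356 in CX3, below the floor. It reached the filter's minimum in CTR only, so the receptor counts that include it are descriptions. Sstr5 (1.51, adjusted p = 0.0001314), Sstr4 (1.13, adjusted p = 0.00113) and Npy2r (1.09, adjusted p = 1.985e-06) were higher in DAT than in CTR.

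The genes that process and pack peptides were mostly lower in CX3 and higher in DAT. Of 18 genes, all tested, 3 were called higher and 11 lower in CX3 than in CTR, against 14% and 16.5% of all genes. In DAT, 14 were called higher than in CTR, against 32%, and the other 4 were not called. Between CX3 and DAT, 16 were lower in CX3, against 31.3%. Vgf, which encodes a granin-like protein of dense core vesicles, had a mean of 139 CPM in CTR, 88.6 in CX3 and 354 in DAT. Its log2 fold change was -0.65 for CX3 against CTR (adjusted p = 8.824e-07) and 1.35 for DAT against CTR (adjusted p = 9.163e-11). Cpe, the carboxypeptidase that trims cut peptides, was lower in CX3 than in CTR (-0.52, adjusted p = 1.072e-06), and so was Pam, the amidating enzyme (-0.52, adjusted p = 2.082e-07). Pcsk1n, an inhibitor of the convertase encoded by Pcsk1, was higher in CX3 (0.38, adjusted p = 0.002749) and in DAT (1.06, adjusted p = 5.462e-08). Chga, which encodes chromogranin A, was higher in DAT (1.03, adjusted p = 5.497e-10), as was Ptprn, a membrane protein of dense core vesicles (1.13, adjusted p = 3.615e-11). Genes of neurons in general moved the same way in DAT, with 9 of 10 pan-neuronal genes called higher than in CTR, against 32% of all genes. Their summed level was 5199 to 5228 CPM in CTR, 5281 to 5408 in CX3 and 7852 to 7920 in DAT. All 8 GABAergic markers were called higher in DAT than in CTR, and 6 of 12 striatal projection neuron markers were, against the same 32%. The part of a different share of neurons in the higher peptide genes of DAT was not tested.

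**Figure D4:**
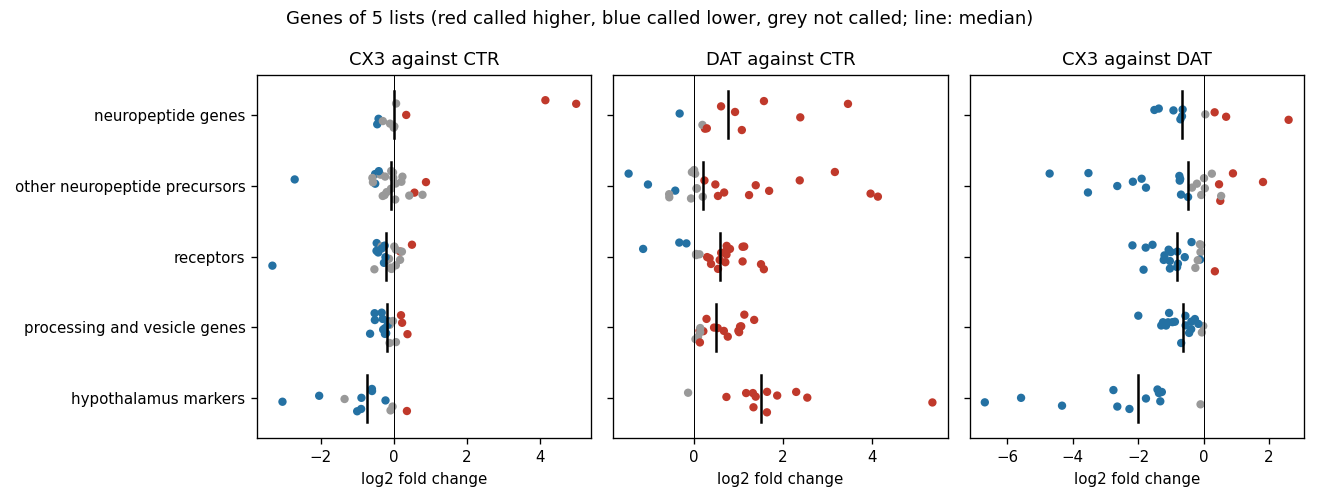
Fitted log2 fold changes of the tested genes of 5 lists in the 3 comparisons (points, with spread on the y axis only for legibility; the line is the list's median), each panel with its own x axis. In DAT against CTR, most receptor, processing and hypothalamus genes lay to the right of 0. In these lists 16 of 22, 14 of 18 and 11 of 12 were called higher, against 32% of all genes tested.

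Among 158 tested genes of the other lists, members left out, those with the pattern most like each member were sought by Pearson's r. It was taken on log2 CPM over the 9 libraries. These values describe 3 groups of 3 libraries that share group, depth and tissue, and so mostly differences between groups. Pmch was most like Ttr (r = 0.996) and Drd2 (0.980), and Hcrt like Folr1 (0.976), a choroid plexus gene, and Slc18a2 (0.953), the vesicular monoamine transporter. Pdyn was most like Avp (0.991), Npy like Nefm (0.985), Sst and Cartpt like Tcf7l2 (0.990 and 0.987), Penk and Tac1 like Calb2 (0.988 and 0.982), Nts like Pvalb (0.971) and Cck like Grp (0.932). Among the members themselves, Pdyn and Npy were the most alike (r = 0.984), followed by Sst and Cartpt (0.980), and Hcrt and Pmch had 0.918.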

How the data were processed

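The mouse line and vector named in the labels set the 3 groups. The authors deposited raw read counts per gene for each library, in 3 columns (unstranded, forward and reverse). Per the submitters' processing notes, the tools were Trimmomatic, STAR, featureCounts and DESeq2 with the build mm10. The files have the layout of STAR's gene counts, and all 55450 identifiers belong to GENCODE M21. The reverse strand held 49.8% to 49.9% of strand-specific counts although a stranded kit is described, so both strands together were used, which drops reads where genes on opposite strands overlap.

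Genes were filtered with filterByExpr, scaled by TMM and fitted over all 9 libraries with the quasi-likelihood test of edgeR 4.0.16 in R 4.3.3, with Benjamini-Hochberg adjustment over 20892 genes. DESeq2 1.42.0 was an alternative. SE was taken from the fold change and the F statistic. Members and lists were chosen with earlier results of these data known. Named genes are all members and, from each other list, called genes with the largest fold changes, and any other gene named, such as receptors of the members' peptides, was chosen after its values were seen. Exon lengths are unions over GENCODE M21. The test was checked on simulated counts. Python 3.11.15 was used for summaries.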

Additional observations from a re-analysis of the deposited data

How the results depend on the processing

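Of the 30 fold changes of the members, 17 kept their direction and their side of the threshold under all 19 alternatives. Among these were the 3 comparisons of Pmch and those of Hcrt, which passed the filter through CX3 and DAT. Where the test was against a fold of 1.2, 1763, 8228 and 7989 genes were called for CX3 against CTR, DAT against CTR and CX3 against DAT, in place of 6367, 12520 and 12311, and 0 members were called lower in CX3 or in DAT than in CTR by edgeR, against 2 and 0 at an unadjusted p under 0.05 of that test and 3 and 1 by DESeq2 against a fold of 1. By construction this test asks more than a difference from 0. Differences near 0 between CX3 and CTR changed sign: Pdyn was -0.00439 under DESeq2, -0.00439 with the DESeq2 size factors, -0.00279 with at least 10 counts and -0.00517 in reverse-strand counts, and Npy was -0.0139 in reverse-strand counts. Leaving out 1 library at a time gave -0.0362 to 0.0369 for Pdyn, -0.0163 to 0.203 for Npy and -0.00245 to 0.0489 for Cck. Scaling by library totals alone moved the median log2 fold change of all genes by -0.15 for DAT against CTR and 0.19 for CX3 against DAT, and Nts was then called between CX3 and DAT (0.25). Keeping every gene with at least 1 count, which adds rarely counted genes, moved it by -0.12 for CX3 against CTR and -0.49 for DAT against CTR, and Tac1 was then called between DAT and CTR (0.19). Cartpt was called lower in CX3 than in CTR under DESeq2 (adjusted p = 0.03503), its size factors, either count filter and the fit of these 2 groups alone. The cause of these changes was not tested.

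No pairing of the libraries by the letters A, B and C was seen. Of 9 same-letter correlations of deviations from the group means, 3 were over 0.1 (range -0.38 to 0.17). The different-letter pair CX3 A and DAT B reached 0.45. With 3 libraries per group, these correlations cannot decide whether libraries of a letter were prepared together. With the letter as a replicate block, 5805, 12144 and 11955 genes were called, and members called higher and lower numbered 3 and 3, 8 and 1, and 3 and 6. The third member lower in CX3 than in CTR was Cartpt (-0.29, adjusted p = 0.03046 in the block fit). Depth limits Hcrt in CTR, where 7 to 11 reads were counted per library.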
